A study of Mus musculus with 10 samples.

Results

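Heart muscle relaxes when calcium is pumped out of the cytosol into the sarcoplasmic reticulum, the calcium store of the muscle cell. The genes described here encode the cardiac pump of that store (Atp2a2, the protein SERCA2), proteins that regulate the pump (Pln, Sln and S100a1) and proteins that bind calcium inside the store (Srl, Hrc, Casq2, Casq1 and Calr). They were taken by symbol from a table of raw read counts per gene, and all 9 were found among its 38355 genes. Transcripts were counted in 5 Epac1-PLN and 5 wildtype libraries of isolated adult cardiomyocytes.

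Every animal was an untreated FVB/N mouse. The tested animals carried the Epac1-PLN transgene, a fluorescence (FRET) sensor of cAMP that the series title describes as specific to the heart and whose name joins Epac1 with phospholamban. The controls were labelled wildtype. Epac1-PLN replicates 1 and 5 and wildtype replicates 1 and 2 were males, and the other 6 libraries were females. The labels number the libraries of each genotype as biological replicates. The promoter, the number of founder lines and the sensor's sequence were not given in the sources used here.

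Phospholamban, the protein of Pln, is a small membrane protein that lowers the calcium affinity of SERCA2 until it is phosphorylated by protein kinase A or by the calcium/calmodulin kinase CaMKII. Sarcolipin, the protein of Sln, is a shorter relative that also inhibits the pump and is known in the mouse heart from the atria. The calsequestrins (Casq1 and Casq2), the histidine-rich calcium binding protein (Hrc), sarcalumenin (Srl) and calreticulin (Calr) hold calcium in the lumen of the store.

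Library totals lay between 10632224 and 20983754 counts. Epac1-PLN replicate 4 stood apart most, with a median Spearman correlation of 0.983 to the rest, where the other 9 had 0.986 to 0.991. Transcripts that define heart muscle cells were abundant in both groups: 8 cardiac markers, led by Myh6 and Actc1, summed to 84484 to 95603 CPM (counts scaled by edgeR to a common library size with TMM factors) in Epac1-PLN and 82727 to 96774 CPM in wildtype libraries. Skeletal muscle markers, led by Tnni2 and Mylpf, summed to 1.40 to 2.08 CPM in Epac1-PLN and 1.53 to 2.17 CPM in wildtype libraries. Reads counted at Rapgef3, the Epac1 gene, checked the genotype labels, with 1241 to 1741 CPM in Epac1-PLN and 10.4 to 15.9 CPM in wildtype libraries.

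The coding sequences of the regulators Pln and Sln are shown because the sensor is named after the protein of the first. They were read from GENCODE M21 transcripts (mm10, plus strand), and in both genes the whole coding sequence lies in 1 exon. Capitals in Pln mark the codons of serine 16 and threonine 17, the sites known to be phosphorylated by protein kinase A and CaMKII. The Pln coding sequence lies at chr10:53343864-53344022 and spans 159 bases with its stop codon, for 52 residues. The Sln coding sequence lies at chr9:53853473-53853568 and spans 96 bases, for 31 residues.
Pln: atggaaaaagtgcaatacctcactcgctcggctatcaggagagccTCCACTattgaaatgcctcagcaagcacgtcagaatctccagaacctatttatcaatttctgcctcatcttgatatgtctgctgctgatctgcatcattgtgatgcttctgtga
Sln: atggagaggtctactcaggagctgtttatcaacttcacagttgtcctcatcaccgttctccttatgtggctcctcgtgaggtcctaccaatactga
Coding bases made up 5.76% of the 2759 merged exon bases of Pln. Sensor reads that match a mouse gene share its count with the endogenous transcripts. Without the sensor's sequence it is not known whether any of its reads were counted at Pln, and their part in the Pln counts was not tested.

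Across the 9 genes, 1 changed with genotype. Srl rose 1.33-fold in Epac1-PLN cells, and the other 7 genes that could be tested did not pass the threshold, the pump and its inhibitor among them. The threshold was an adjusted p of 0.05 over all 12629 tested genes (edgeR's quasi-likelihood test, with sex in the model), which 81 genes passed, or 0.641% (0.443% higher in Epac1-PLN cells, as Srl was, and 0.198% lower). Sln did not pass the low-count filter and was not among them. With no filter its log2 fold change was -0.06, with a 95% interval of -0.91 to 0.79 (adjusted p = 0.986, edgeR). That fit gave the other 8 genes nearly alike standard errors (0.078 to 0.087), so the interval may not reflect the spread of Sln between libraries. Of the 8 genes tested, 5 were higher in Epac1-PLN cells and their median log2 fold change was 0.16, against 51% higher and a median of 0.00 over all tested genes. Before adjustment, 3 of the 8 had p under 0.05, as did 12.2% of all tested genes.

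**Figure D1:**
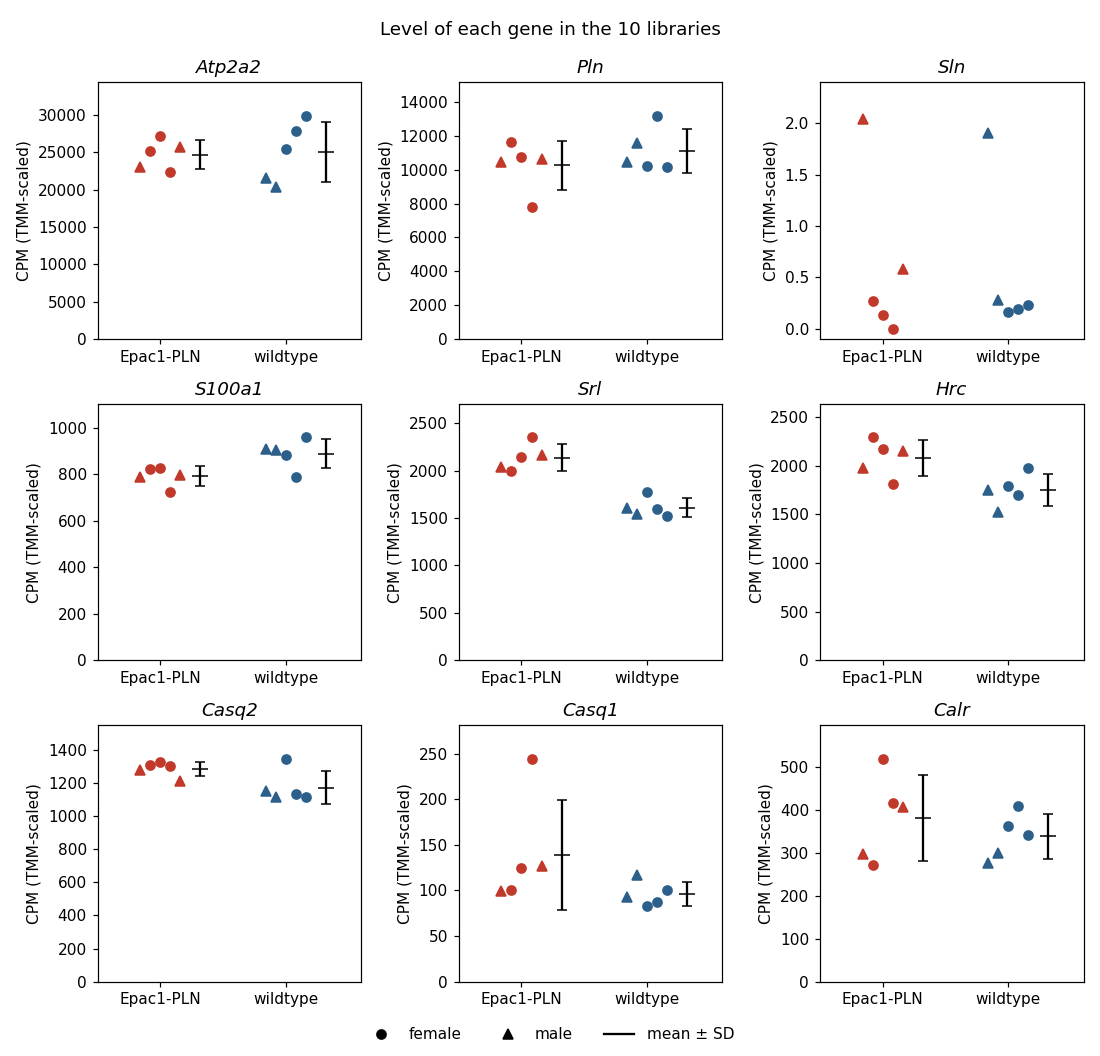
TMM-scaled CPM of each gene (vertical axes) in each Epac1-PLN and wildtype library (horizontal axes), with circles for females and triangles for males; within a group the points run from replicate 1 to 5. Bars give mean ± SD (n = 5 per group) except for Sln. The groups separate for Srl, and Epac1-PLN replicate 4 stands high for Casq1 at 244 CPM.

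Atp2a2, the pump (ENSMUSG00000029467, chromosome 5, 122442702 to 122502225, minus strand), ranked second in mean CPM among all tested genes. It stood at 23054, 25183, 27156, 22406 and 25695 CPM in Epac1-PLN replicates 1 to 5. In wildtype replicates 1 to 5 it stood at 21600.5, 20283, 25462, 27839.5 and 29875 CPM. The wildtype values spanned a wider range, and all 5 Epac1-PLN values lay inside it. The means were 24699 ± 1951 CPM in Epac1-PLN and 25012 ± 4057 CPM in wildtype cells (SD, n = 5 per group). The log2 fold change was -0.01 with a 95% interval of -0.20 to 0.19 (adjusted p = 0.992, edgeR's quasi-likelihood test).

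Pln (ENSMUSG00000038583, chromosome 10, 53337686 to 53345999, plus strand) ranked 7 by mean CPM. It stood at 10469.5, 11605, 10749, 7821 and 10603 CPM in Epac1-PLN replicates 1 to 5. Wildtype replicates 1 to 5 had 10423, 11562, 10194, 13178 and 10169.9 CPM. The groups overlapped, with the lowest value in Epac1-PLN replicate 4 and the highest in wildtype replicate 4. The log2 fold change was -0.12 with a 95% interval of -0.35 to 0.12 (adjusted p = 0.742, edgeR). It was -0.03 without Epac1-PLN replicate 4 and -0.04 without wildtype replicate 4, and grew to -0.17 without Epac1-PLN replicate 2. Its exons share 141 bases with exons of Cep85l on the other strand, a gene with 1065 counts over the 10 libraries, and 1644 bases with Gm47644, which the count table does not list.

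The ratio of Pln to Atp2a2 counts sets the inhibitor against the pump within each library and needs no scaling between libraries. It was 0.454, 0.461, 0.396, 0.349 and 0.413 in Epac1-PLN replicates 1 to 5, and 0.483, 0.570, 0.400, 0.473 and 0.340 in wildtype replicates 1 to 5. Every Epac1-PLN value again fell inside the wildtype range. The mean ratio was 0.414 ± 0.0457 in Epac1-PLN and 0.453 ± 0.0872 in wildtype libraries (SD, n = 5 per group). The log2 difference was -0.11, with an exact 2-sided permutation p of 0.413, where 0.00794 is the smallest p that 5 against 5 libraries can give. The difference was -0.03 without wildtype replicate 2, -0.05 without Epac1-PLN replicate 4, -0.21 without wildtype replicate 5 and -0.0064 in females alone.

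**Figure D2:**
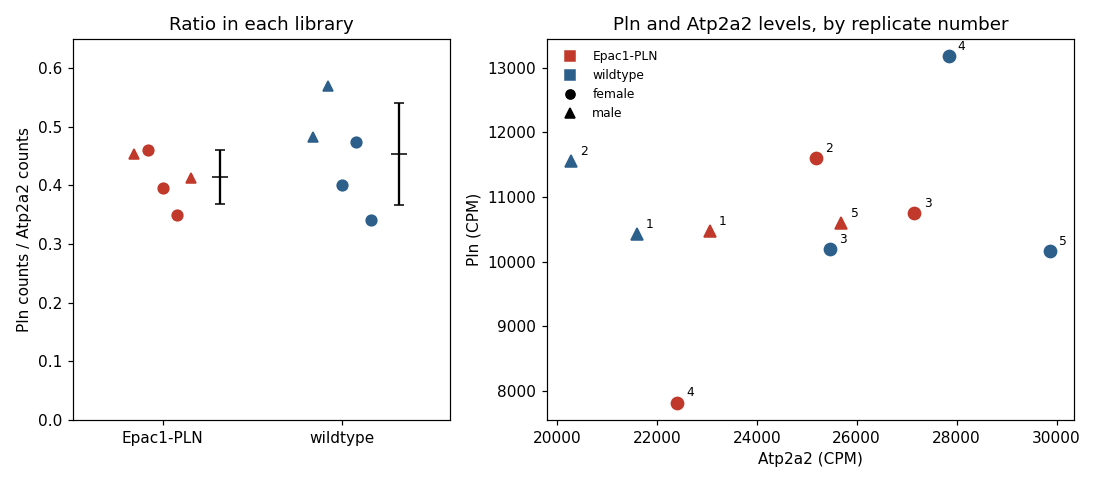
Left, Pln counts divided by Atp2a2 counts in each Epac1-PLN and wildtype library, with mean ± SD (n = 5 per group). Right, Pln against Atp2a2 in CPM, numbered by replicate: the 5 wildtype libraries spread from 20283 to 29875 CPM of Atp2a2, and Epac1-PLN replicate 4 lies lowest for Pln at 7821 CPM.

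S100a1, a calcium-binding protein known to raise SERCA2 activity (ENSMUSG00000044080, chromosome 3, 90511034 to 90514392, minus strand), had 787, 824, 827, 722 and 799 CPM in Epac1-PLN replicates 1 to 5. Wildtype replicates 1 to 5 had 907, 905, 885, 789 and 959 CPM. Wildtype replicate 4 lay among the Epac1-PLN values and the other wildtype libraries above them all. The log2 fold change was -0.17 with a 95% interval of -0.31 to -0.02, and it did not pass the adjustment over all genes (adjusted p = 0.326, edgeR; 0 of 5 Epac1-PLN libraries lay above the wildtype mean).

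Sln (ENSMUSG00000042045, chromosome 9, 53850251 to 53853844, plus strand) was close to undetected, with 22, 4, 2, 0 and 7 counts in Epac1-PLN replicates 1 to 5 and 40, 4, 3, 3 and 3 counts in wildtype replicates 1 to 5. In CPM these were 2.04, 0.269, 0.128, 0 and 0.583 in Epac1-PLN and 1.90, 0.280, 0.164, 0.194 and 0.234 in wildtype libraries. Replicate 1 of each group, both males, held most of the counts. The sums were 35 counts in Epac1-PLN and 53 in wildtype libraries, and 13 in each group without its replicate 1. The count of 0 in Epac1-PLN replicate 4 allows up to 3 counts, or 0.200 CPM, a limit that covers counting error only.

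Of the genes that mark atrial muscle cells, Myl7, Myl4 and Nppa were picked after their values were seen. The light chains Myl7 and Myl4 were high in replicate 1 of both groups, as Sln was, and the natriuretic peptide gene Nppa was not. The atrial myosin light chain Myl7 had 6.21, 1.21, 0.257, 0.133 and 3.50 CPM in Epac1-PLN replicates 1 to 5, and 4.09, 0.560, 0.218, 0.712 and 1.02 CPM in wildtype replicates 1 to 5. Myl4, another atrial light chain, stood at 8.81 CPM in Epac1-PLN replicate 1 and 8.99 CPM in wildtype replicate 1, against at most 4.33 CPM in the other 8 libraries. Nppa stood at 27.7 CPM in Epac1-PLN replicate 1 and 53.4 CPM in wildtype replicate 1, with 73.1 CPM in Epac1-PLN replicate 4, which had no Sln count. The whole list of 7 atrial markers, led by Kcnj5 and Kcnj3, summed to 235 to 269.8 CPM in Epac1-PLN and 220.3 to 259 CPM in wildtype libraries. Replicate 1 had the highest sum of the wildtype libraries, but in Epac1-PLN replicate 1 the sum was 248 CPM, inside its group's range. The parallel with Sln thus held for the light chains and not for the list sum in both groups. None of the listed genes was at 0 in all libraries. In libraries of many cells, fewer cells of a type and less RNA per cell cannot be told apart. The part of atrial cells in the Sln values was not tested.

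**Figure D3:**
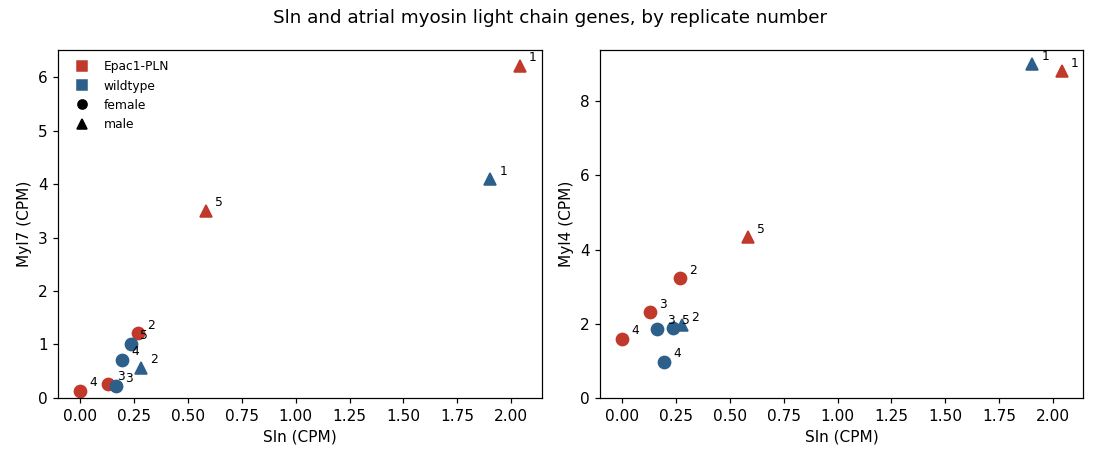
Sln (horizontal axes, CPM) against the atrial light chain genes Myl7 and Myl4 (vertical axes, CPM) in the 10 libraries, numbered by replicate. Replicate 1 of both groups lies at the upper right, with Sln at 2.04 CPM in Epac1-PLN and 1.90 CPM in wildtype. The light chain genes were picked after their values were seen.

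Srl encodes sarcalumenin, a glycoprotein of the lumen known to support the stability and activity of SERCA2 (ENSMUSG00000022519, chromosome 16, 4480216 to 4541816, minus strand). It stood at 2037, 1992, 2142, 2350.5 and 2164 CPM in Epac1-PLN replicates 1 to 5, and at 1611, 1537, 1778, 1595 and 1524 CPM in wildtype replicates 1 to 5. The groups did not overlap, which held upward for 1.5% of all tested genes and in either direction for 2.75%. The log2 fold change was 0.41 ± 0.07 (SE), with a 95% interval of 0.26 to 0.55 and an adjusted p of 0.0174 (edgeR), rank 28 by p among the 12629 genes. Females alone, 3 against 3, gave the same size of 0.41 with an adjusted p of 0.387. Leaving out 1 library kept the size between 0.38 and 0.45, but the call was lost without wildtype replicate 1 (adjusted p = 0.0667, edgeR), Epac1-PLN replicate 3 (0.0631) or Epac1-PLN replicate 5 (0.0544).

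**Figure D4:**
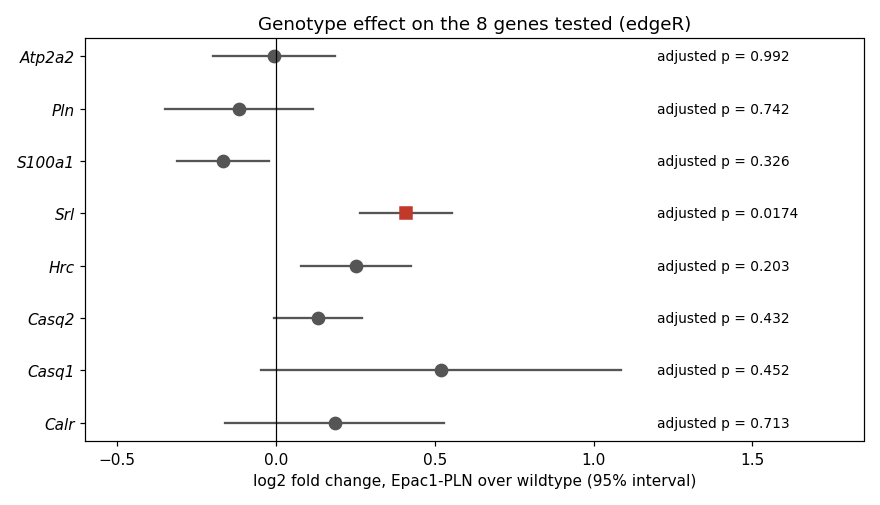
Log2 fold change of Epac1-PLN over wildtype with its 95% interval (horizontal axis) for the 8 genes tested, with the adjusted p over all genes at the right (edgeR). The square marks Srl, past the threshold at 0.0174, and circles mark the 7 genes that did not pass it; Casq1 has the widest interval, -0.05 to 1.09.

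Hrc, which binds calcium and the junctional protein triadin (ENSMUSG00000038239, chromosome 7, 45335290 to 45338973, plus strand), had 1980.0, 2292, 2170.3, 1810.0 and 2151 CPM in Epac1-PLN replicates 1 to 5. Wildtype replicates 1 to 5 had 1754, 1527, 1791, 1696 and 1975 CPM. All 5 Epac1-PLN libraries lay above the wildtype mean of 1749 ± 162 CPM (SD, n = 5), though wildtype replicate 5 exceeded Epac1-PLN replicate 4. The log2 fold change was 0.25 with a 95% interval of 0.08 to 0.43 and an adjusted p of 0.203 (edgeR). Leaving out 1 library gave adjusted p values from 0.0569 (without Epac1-PLN replicate 4) to 0.405 (without Epac1-PLN replicate 3, edgeR). Females alone gave a log2 fold change of 0.20 (adjusted p = 0.748, edgeR).

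Casq2, the cardiac calsequestrin that buffers most of the stored calcium (ENSMUSG00000027861, chromosome 3, 102086415 to 102146514, plus strand), had 1279, 1305, 1323, 1301 and 1209 CPM in Epac1-PLN replicates 1 to 5. Wildtype replicates 1 to 5 had 1149, 1112, 1345, 1135 and 1114 CPM. Wildtype replicate 3 was above all 5 Epac1-PLN libraries and the other wildtype libraries were below them. The coefficient of variation was 3.45% in Epac1-PLN and 8.41% in wildtype cells, the first being the smallest of the 9 genes. Its difference of 0.13 on the log2 scale had a 95% interval of -0.01 to 0.27 (adjusted p = 0.432, edgeR).

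Casq1, the calsequestrin best known from skeletal muscle (ENSMUSG00000007122, chromosome 1, 172209894 to 172219868, minus strand), had 98.9, 101, 125, 244 and 126 CPM in Epac1-PLN replicates 1 to 5. Wildtype replicates 1 to 5 had 93.1, 116, 83.4, 87.6 and 101 CPM. Its log2 fold change of 0.52 had a 95% interval of -0.05 to 1.09 (adjusted p = 0.452, edgeR). Epac1-PLN replicate 4 carried much of it: without that library the log2 fold change was 0.22 (adjusted p = 0.412, edgeR), and it was 0.80 in females alone, which include it. The skeletal muscle markers were not high there, with a sum of 1.40 CPM, the lowest of the 10 libraries. Casq1 exons share 156 bases with Gm17224 on the other strand, which held 194 counts over all libraries.

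Calr, the calreticulin gene, whose product binds calcium in the endoplasmic reticulum and assists protein folding (ENSMUSG00000003814, chromosome 8, 84841850 to 84846934, minus strand), had 296, 271, 518, 415 and 407 CPM in Epac1-PLN replicates 1 to 5. Wildtype replicates 1 to 5 had 275, 299.7, 362, 409 and 342 CPM. The groups overlapped widely, with the lowest and the highest value both in Epac1-PLN libraries. With a 95% interval of -0.16 to 0.53, the log2 fold change was 0.18 (adjusted p = 0.713, edgeR). Leaving out Epac1-PLN replicate 2 gave 0.31, leaving out replicate 3 of that group gave 0.071, and leaving out its replicate 5 gave 0.095, while females alone gave 0.12.

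The genes did not move together in Epac1-PLN replicate 4. Of the Epac1-PLN libraries it had the lowest Atp2a2, Pln, S100a1 and Hrc and the highest Srl and Casq1. Sln had 0 counts there and 2 counts in Epac1-PLN replicate 3, too few to rank these libraries. It also had the highest sums of the marker lists for endothelial cells (745 CPM, led by Kdr and Cdh5), macrophages and leukocytes (68.8 CPM, led by Lyz2 and C1qa) and smooth muscle cells and pericytes (801 CPM, led by Rgs5 and Acta2). The endothelial sum was 372 to 503 CPM in the other Epac1-PLN libraries and 374 to 623 CPM in wildtype libraries. The macrophage sum was 27.7 to 58.3 CPM in the other 9 libraries, and the smooth muscle sum 278 to 722 CPM. The fibroblast sum, led by Dcn and Col3a1, was 429 CPM there, against 255 to 418 CPM in the other Epac1-PLN libraries. It lay within the wildtype range of 239 to 446 CPM. The red blood cell sum, led by Hbb-bs and Hba-a1, was 19.1 CPM. The cardiac marker sum was 84484 CPM, the lowest of the Epac1-PLN libraries but above the lowest wildtype sum of 82727 CPM. The Srl call remained without this library (log2 fold change 0.38, adjusted p = 0.0177, edgeR).

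To set the levels of different genes side by side, CPM were divided by the merged exon length of GENCODE M21, as CPM per kilobase. In this unit the order was Atp2a2, Pln, S100a1, Hrc, Casq2, Srl, Calr, Casq1 and Sln in both groups. Atp2a2 averaged 4062 ± 321 in Epac1-PLN and 4113 ± 667 in wildtype cells, and Pln 3715 ± 518 in Epac1-PLN and 4025 ± 468 in wildtype cells. In this unit these neighbours did not differ beyond their spread, but with another length Pln stood lower, as given below. S100a1 followed at 1141 ± 61.0 in Epac1-PLN and 1281 ± 89.4 in wildtype cells, and Hrc at 811 ± 73.2 in Epac1-PLN and 681 ± 63.1 in wildtype cells. Casq2 was at 469 ± 16.2 in Epac1-PLN and 428 ± 36.0 in wildtype cells, and Srl at 401 ± 26.1 in Epac1-PLN and 302 ± 19.03 in wildtype cells. Casq2 at 442 to 484 and Srl at 374 to 441 nearly met in Epac1-PLN libraries, but lay further apart in wildtype libraries, at 406 to 492 and 286 to 334.

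**Figure D5:**
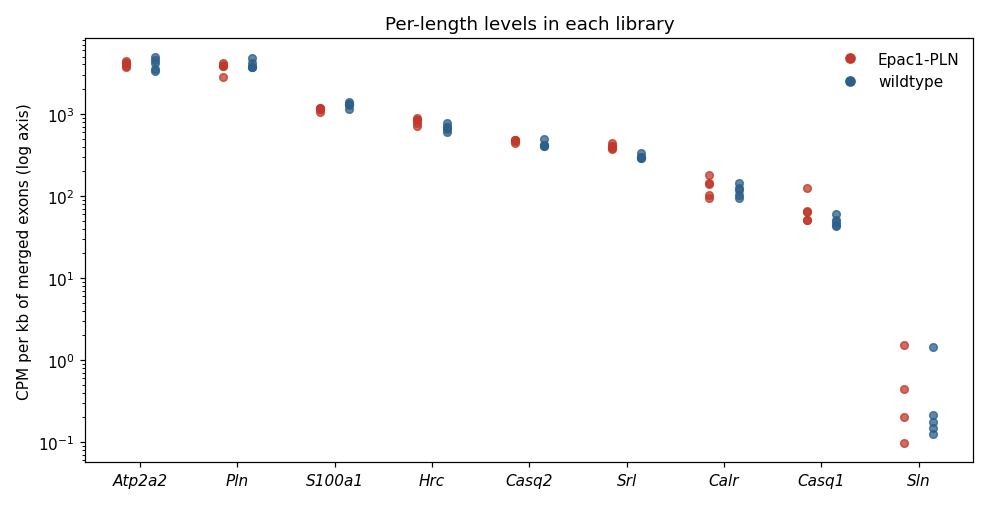
Per-length level (log axis, CPM per kilobase of merged exons) of each gene in each Epac1-PLN and wildtype library. Atp2a2 and Pln overlap at the top; the remaining genes step down to Sln, whose point at 0 in Epac1-PLN replicate 4 cannot be drawn on a log axis.

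Further down this scale, Calr averaged 132 ± 34.7 in Epac1-PLN and 117 ± 18.3 in wildtype cells and Casq1 71.3 ± 30.9 in Epac1-PLN and 49.3 ± 6.67 in wildtype cells (CPM per kilobase). Their ranges overlapped among Epac1-PLN libraries. In this unit Atp2a2 and Pln overlapped in both groups. Apart from these pairs, neighbours in this order did not overlap within either group. Casq2 exceeded Casq1 in all 10 libraries. Sln was at 0.0115% of the per-length level of Atp2a2 over the 10 libraries, whereas Pln was at 95.6% ± 15.2 of it (SD, n = 10). Divided by the longest protein-coding transcript instead of merged exons, Pln was at 83.4% of Atp2a2. How near these genes stood, and their overlap, thus depend on the length used. The 9 genes took 3.84% to 4.39% of all counts in Epac1-PLN and 3.79% to 4.65% in wildtype libraries.

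Sex was the other labelled condition. Of the 8 genes tested, 0 changed with sex (edgeR; also 0 by DESeq2 and by limma-voom), against 0.34% of all tested genes (0.15% higher and 0.19% lower in females). Atp2a2 alone among the 8 had an unadjusted p under 0.05, as had 10.4% of all genes. It averaged 26320 ± 2569 CPM in 6 females and 22658 ± 2319 CPM in 4 males (SD), a log2 fold change of 0.22 with a 95% interval of 0.02 to 0.41 (adjusted p = 0.430, edgeR). Among Epac1-PLN libraries it stood at 22406 to 27156 CPM in females and 23054 to 25695 CPM in males, which overlap. Among wildtype libraries the sexes did not overlap, with 25462 to 29875 CPM in females and 20283 to 21600.5 CPM in males, a separation of 3 against 2 libraries that 18% of all tested genes showed in that direction.

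The genotype-by-sex term asked whether the genotype effect differed between the sexes. It was called for 0% of the 12629 genes (0 by edgeR, with 474, or 3.75%, at an unadjusted p under 0.05, and 1 by DESeq2). For Atp2a2 it was -0.37 on the log2 scale with a 95% interval of -0.71 to -0.03 (unadjusted p = 0.0334, adjusted p = 0.993, edgeR). Sln was at 0 to 0.269 CPM in females and 0.280 to 2.04 CPM in males, and the highest female and the lowest male library held 4 counts each. With no low-count filter Sln was lower in females, with a log2 fold change of -2.84 (adjusted p = 2.60e-08, edgeR), where 2.36% of genes were called. In that fit the standard errors of the other 8 genes lay close together, at 0.080 to 0.089, whatever their spread. The p therefore does not measure how far Sln varied between libraries. The call was lost without wildtype replicate 1 (-2.27, adjusted p = 0.145, edgeR) and without replicate 1 of both groups (-1.32, adjusted p = 0.913), and remained without Epac1-PLN replicate 1 (-2.37, adjusted p = 0.000998). The Pln to Atp2a2 count ratio was 0.340 to 0.473 in females and 0.413 to 0.570 in males.

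Genes that work beside these proteins were taken from 5 lists, with 62 names of which 54 could be tested. None changed by edgeR (0 of 54, with 9 at an unadjusted p under 0.05, against 12.2% of all genes) or by limma-voom (0). DESeq2 called 2, Akap7 and Calu, against 2.1% of all genes. The median log2 fold change of the 54 genes was 0.03, with 36 of 54 higher in Epac1-PLN cells, against 0.00 and 51% over all tested genes. Among 16 genes for the phosphorylation and binding of phospholamban (8 higher, 8 lower, median -0.01), Akap7, an anchor that brings protein kinase A to phospholamban, had the smallest p. It averaged 32.3 ± 4.99 CPM in Epac1-PLN and 42.1 ± 3.31 CPM in wildtype cells (SD, n = 5 per group) without overlap, downward as in 1.24% of tested genes (log2 fold change -0.39, adjusted p = 0.102, edgeR). The kinase gene Camk2g was at -0.16 and Prkar2a, a regulatory subunit of protein kinase A, at 0.16 on the log2 scale (adjusted p = 0.329 and 0.341, edgeR).

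Of 10 tested genes of the calcium release unit, 7 were higher and 3 lower, with a median of 0.01. Trdn, which encodes triadin and anchors calsequestrin at the release channel, averaged 564 ± 58.7 CPM in Epac1-PLN and 482 ± 47.7 CPM in wildtype cells (log2 fold change 0.23, adjusted p = 0.304, edgeR). The junctophilin genes Jph1 and Jph2, whose products tether the store to the cell membrane, had log2 fold changes of -0.19 and 0.14. Of 14 other luminal calcium binders and chaperones, 12 were higher, against 51% of all tested genes. Their log2 fold changes were small, from -0.23 to 0.20 with a median of 0.06. Calu, the calumenin gene, averaged 496 ± 14.3 CPM in Epac1-PLN and 442 ± 18.7 CPM in wildtype cells without overlap, upward as in 1.5% of tested genes (log2 fold change 0.17, adjusted p = 0.211, edgeR). Nucb1 and Pdia3 were at 0.09 and 0.20.

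Of 11 tested genes for counter-ion channels and refilling of the store, 8 were higher with a median of 0.11, where 51% of all tested genes were higher. Tmco1, which encodes a calcium channel that guards the endoplasmic reticulum against overfilling, averaged 129 ± 4.49 CPM in Epac1-PLN and 112 ± 7.0 CPM in wildtype cells, also without overlap, upward as in 1.5% of tested genes (log2 fold change 0.20, adjusted p = 0.199, edgeR). The counter-ion channel genes Tmem38a and Tmem38b had log2 fold changes of 0.18 and 0.13. Among other pumps and small regulators, Atp2a3 was at 4.94 ± 1.69 CPM in Epac1-PLN and 4.17 ± 1.35 CPM in wildtype cells, and the myoregulin gene (2310015B20Rik in the table) at 1.52 ± 0.531 CPM in Epac1-PLN and 1.55 ± 0.404 CPM in wildtype cells. The small regulator gene 1810037I17Rik was at 28.8 ± 1.47 CPM in Epac1-PLN and 29.1 ± 2.33 CPM in wildtype cells. The skeletal pump gene Atp2a1 did not pass the low-count filter.

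Profiles most like 3 of the genes were sought among all tested genes, by the root mean square difference between mean-centred log2 CPM over the 10 libraries. For Srl these were Slc27a4 (0.070), Vopp1 (0.078) and Lman2l (0.080), against a median of 0.293 over all genes. Their log2 fold changes for genotype were 0.38, 0.39 and 0.35, which the choice by likeness to Srl over the same libraries largely fixed. For Pln they were Svip (0.042), Pcmtd1 (0.058) and 1700020I14Rik (0.061), and for Atp2a2 they were D5Ertd579e (0.062), Kcnj11 (0.063) and Ncoa5 (0.067). None of these 6 passed the threshold for genotype.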

How the data were processed

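RNA was isolated from cardiomyocytes obtained by Langendorff perfusion, and TruSeq RNA libraries were run on a HiSeq2000 according to the labels' protocols. Raw counts per Ensembl gene were deposited. The authors also deposited a normalized signal, which equals each count divided by its library's size factor (checked, largest relative deviation 5.33e-15), and was not used further. STAR 2.3.0 and HTSeq 0.5.4, with the mm10 build, are listed in the submitters' processing notes, beside CASAVA 1.8.2 and FastQC 0.10.0. Strand handling and the annotation release were not given in the sources used here, so reads of overlapping genes may be shared. Of 38355 genes in the table, 470 lacked a symbol; coordinates are those of the table.

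Genes were kept by filterByExpr (12629 genes), scaled by TMM and tested with edgeR 4.0.16 (quasi-likelihood F test, robust, sex and genotype in the model, Benjamini-Hochberg) in R 4.3.3. Standard errors were the absolute log2 fold change over the square root of F. Alternatives were other scalings, DESeq2 1.42.0, limma-voom (limma 3.58.1), no filter, other covariates, females alone, a replicate block and each library left out. Replicate numbers did not pair the libraries. The tests were checked on simulated counts. No 2 libraries of a group agreed within sampling noise (chi-square per degree of freedom 7.55 to 30.3). The design text gives 5 individual mice per genotype.

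The members and lists were chosen with earlier results of these data known. Named were the 9 genes, Rapgef3, from each pathway list the genes past the threshold or else up to 3 with the smallest p, the 2 most abundant of each marker list, and 3 genes of like profile for each of Pln, Atp2a2 and Srl. Others (Myl7, Myl4, Nppa, Atp2a1) were named after their values were seen.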

Additional observations from a re-analysis of the deposited data

Results flagged for a closer look

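In groups of 5 libraries, a library was singled out where its gap to the nearest other library exceeded 0.71 of the group's range (Dixon's 95% value). Of 20 groups examined (9 genes and the Pln to Atp2a2 ratio, in 2 genotypes), 4 had such a library. A chance rate of about 1 in 20 holds for independent, normally distributed values. Sln had few counts and the ratio reuses the Pln and Atp2a2 values, so whether 4 exceeds chance cannot be told here. Sln was far above the rest in Epac1-PLN replicate 1, at 2.04 CPM, and in wildtype replicate 1, at 1.90 CPM. Casq1 was at 244 CPM in Epac1-PLN replicate 4. Casq2 was at 1345 CPM in wildtype replicate 3.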

How the results depend on the processing

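Counts of genes called with genotype (81), sex (43) and their interaction (0) were 265, 159 and 1 by DESeq2 and 498, 521 and 164 with no low-count filter. The genotype count was 37 without sex in the model and 4 in females alone. Leaving out 1 library gave 14 to 103 genes for genotype, 18 to 93 for sex and 0 to 6 for the interaction. With a replicate block the counts were 2 for genotype, 3 for sex and 0 for the interaction. The replicate numbers did not pair the libraries: deviations of same-numbered libraries correlated at 0.35, -0.30, 0.14, -0.21 and 0.10. Under the block Srl kept its size (0.41) at an adjusted p of 0.0572 (edgeR). The sex effects of Srl, S100a1, Casq1 and Calr, none of them called, took the other sign under the block (-0.066, 0.064, -0.27 and -0.20). Sex differed between same-numbered libraries only in replicates 2 and 5, so under the block the sex effects rested on those libraries alone.

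Srl was called under RLE factors, library totals, DESeq2, limma-voom, no filter and no sex term, and in 7 of the 10 fits that left out 1 library (0.38 to 0.45). It was not called in females alone (0.41). Casq1 was called only with no filter (0.51, adjusted p = 2.05e-06, edgeR). Its standard error was 0.087 in that fit, against 0.25 in the main fit. Without the filter the genotype standard errors of the 8 genes lay at 0.078 to 0.087, though their spread between libraries differed widely. That p therefore does not measure the spread of Casq1, and the no-filter counts of called genes rest on the same fit. Atp2a2 ranged over both signs when libraries were left out (-0.060 to 0.055). Sex effects did the same for Pln (-0.093 to 0.044), S100a1 (-0.053 to 0.0031) and Casq1 (-0.12 to 0.26). Pln, Hrc, S100a1, Casq2 and Calr kept their direction for genotype and stayed uncalled in all 18 alternatives each, as did the Pln to Atp2a2 ratio in its 13. Divided by the longest protein-coding transcript instead of merged exons, a choice made after seeing the data, per-length levels relative to Atp2a2 were 22.7% for S100a1, 14.4% for Hrc, 8.78% for Casq2 and 6.85% for Srl, against 30.0%, 18.4%, 11.1% and 8.72%. Pln stood at 83.4% by that length, against 95.6%. The counts were the same in both per-length scales and only the lengths differed, with 6081 merged exon bases for Atp2a2 against 4486 in its longest coding transcript. The causes of the other shifts were not tested. Sln was tested only with no filter, an analysis extended after seeing the data: its genotype difference of -0.06 became -0.77 without Epac1-PLN replicate 1 and 0.69 without wildtype replicate 1, and was not called in any of these fits.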
